A study of Caenorhabditis elegans with 16 samples.

Results

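The comparison described here is that of wild-type *Caenorhabditis elegans* of the N2 strain kept without food for 6 hr with well-fed N2 worms. It rests on the 8 arrays whose titles name N2, 4 starved and 4 control, of the 16 Affymetrix arrays of the study, and the other 8 arrays hold the same 2 conditions in worms carrying *alfa-1(ok3062)*, a deletion allele of the worm orthologue of C9orf72. The labels give the genotype as wild type, the strain as IW314 and the age as L3, and the worms were raised at 20°C on NGM plates with OP50 bacteria. According to the labels both groups were rocked in M9 buffer for 6 hr, the control with food and the starved group away from it. The methods of the study instead describe L3/L4 worms whose control tubes were frozen at once, while the starved tubes stayed in buffer at room temperature. If that account holds, the lack of food, the time in buffer and the hours of development that passed cannot be told apart in this comparison. Worms of a strain were divided among tubes and nothing says that the 4 tubes of a group were separate cultures. The p-values therefore reflect only how far the samples scatter, which may be technical. That scatter was estimated over all 16 arrays, those of the mutant included. RNA came from whole worms. Values are log2 expression per gene, so that a difference of 1 is a doubling, and the normalization before deposit hides any shift common to most transcripts.

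Insulin and TOR signalling are active in fed worms and decline without food, while the kinase AMPK is switched on as cellular energy falls. The FOXO factor DAF-16 then moves into nuclei, and so does the TFEB factor HLH-30 in starved adults. In nuclei DAF-16 turns on genes of stress resistance and HLH-30 those of autophagy and lysosomal lipid breakdown. In starved L1 larvae the study instead found an HLH-30 reporter in the cytoplasm of N2, but in nuclei of *alfa-1(ok3062)*. Larvae near the end of a stage also run a molting cycle in which genes for the new cuticle are switched on and off in order, and food decides whether that cycle goes on. The genes are described below by these functions, with the limma test across all 25498 genes and an adjusted p under 0.05 as the threshold for saying that a gene rose or fell.

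Of the 25498 genes tested, 2759 rose (10.8%) and 2948 fell (11.6%) after 6 hr without food, and the median log2 change over all genes was 0.0076. These shares are the background against which each group of genes is given below. They include 5972 genes of the class ncRNA, of which 4.64% rose and 2.60% fell. Of the 18812 protein-coding genes 12.9% rose and 14.6% fell, so a list share near these values is no excess over protein-coding genes. Some genes stand in more than 1 list, *acs-2*, *acdh-1*, *fat-7*, *dnj-7* and *phy-2* among them, so the counts of different lists are not independent. Within a group, members named beyond the 4 with the smallest p were chosen after their values were seen. Most of the changes were small. Among the genes that passed, 913 rose and 1319 fell by at least 1.5-fold, 279 rose and 429 fell by at least 2-fold, and 22 rose and 2 fell by at least 4-fold. The 4 starved arrays all lay above the 4 well-fed arrays for 3117 genes (12.2%) and all below them for 3105 (12.2%). The starved arrays of replicates 1 and 3 stood farther from the well-fed arrays than those of replicates 2 and 4 did, at 40.3 and 46.2 against 17.1 and 14.3 on the first principal component, and at opposite ends of the second. Genes had a median SD of 0.139 over the well-fed arrays and 0.171 over the starved arrays. In a fit to the 8 N2 arrays alone 1970 genes rose and 2298 fell. With starved arrays 1 and 3 left out, 1421 genes rose and 2093 fell, and list counts of 5 or more that moved by over 1.5 times without these 2 arrays or without a single array are given both ways. Counts under 5 moved by that much for many lists, and their values without an array are given for some lists only.

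The largest rise was that of *mtl-1*, a metallothionein that binds metal ions and is a known target of DAF-16. Its log2 value was 4.83, 5.23, 5.34 and 5.78 on the 4 well-fed arrays and 9.48, 9.53, 10.18 and 9.28 on the 4 starved arrays. The 2 groups were far apart, and the change of 4.32 (SE 0.23, adjusted p = 4.03e-08) is a 20.0-fold rise. The gene *hil-1*, which encodes an H1 linker histone, had values of 5.69, 5.5, 5.19 and 5.51 in well-fed and 8.74, 8.47, 9.15 and 8.09 in starved worms. It rose by 3.14 (SE 0.19, adjusted p = 1.26e-07), or 8.81-fold. The gene *hsp-12.6*, which encodes a small heat shock protein and is also a DAF-16 target, was at 5.04, 5.09, 4.73 and 5.12 in well-fed and 8.47, 7.07, 7.93 and 7.09 in starved worms. Its rise of 2.64 (adjusted p = 5.37e-06) was larger on starved arrays 1 and 3 than on the other 2, without overlap with the well-fed arrays.

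The other genes of the 15 largest rises belonged to secreted lectins, to F-box proteins and to loci known by their cosmid names. The C-type lectin genes *clec-75* and *clec-82* rose by 2.76 and 2.2. The F-box family holds the substrate-binding parts of ubiquitin ligases, and its *fbxa-163* was at 3.71, 4.13, 3.87 and 3.62 in well-fed and 6.49, 6.27, 6.97 and 6.14 in starved worms, a rise of 2.63 (adjusted p = 8.47e-08). The neighbouring *fbxa-161*, a pseudogene in RefSeq, rose by 2.24, *fbxa-162* by 1.86 and *fbxa-164* by 2.08. These 4 lie next to each other on chromosome II and may share probes, so that their values are not certain to be separate. The remaining 8 were *B0507.3*, *F36G9.7*, *F21C10.11*, *F49H6.5*, *W02D7.11*, *ZK355.8*, *Y82E9BR.5* and *R107.10*, which rose by between 2.17 and 2.51. For *R107.10* the spread was wide, at 3.54, 4.04, 3.53 and 3.57 in well-fed and 7.0, 6.08, 4.22 and 6.06 in starved worms. Its lowest starved array lay just above the highest well-fed one.

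The largest fall was that of *acs-2*, an acyl-CoA synthetase that prepares fatty acids for oxidation in mitochondria. Its values were 10.15, 10.26, 9.95 and 10.47 in well-fed and 7.06, 8.85, 7.5 and 8.76 in starved worms, a change of -2.17 (SE 0.33, adjusted p = 0.000274), or 4.49-fold lower. All 4 starved arrays were below all 4 well-fed arrays, and arrays 1 and 3 were the lowest. Detoxification enzymes stood beside it, with the cytochrome P450 genes *cyp-35A3* at -1.86 and *cyp-35A5* at -1.77. Their sequences are close to each other and they may share probes. Also among the 15 largest falls were *acdh-2* of the acyl-CoA dehydrogenase family at -1.86, *folt-2* of the folate transporter family at -1.89, the saposin-like *spp-23* at -1.88, the lectin gene *clec-258* at -1.93 and the cuticlin-like *cutl-28* at -1.79. The fall of *acdh-2* (adjusted p = 0.0109) was carried mostly by 1 array, since its starved values were 9.42, 9.10, 6.20 and 8.36. The others, known by cosmid names, were *B0280.7*, *F35D2.1*, *C10C5.5*, *K08D8.3*, *F26A10.6*, *F58H1.2* and *F49E12.12*, with changes between -2.08 and -1.77.

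**Figure D1:**
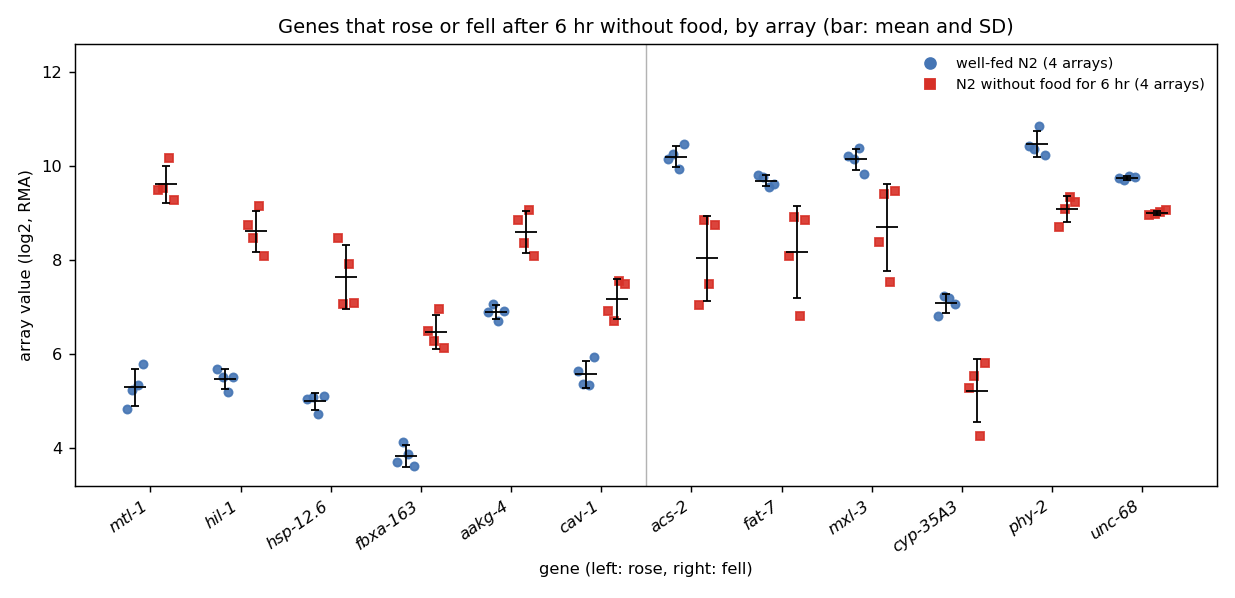
Array values (log2, vertical axis) of 6 genes that rose and 6 that fell, with 4 well-fed arrays (blue circles) and 4 starved arrays (red squares) of N2 each, and the mean and SD in black. The groups do not overlap for any of the 12 genes, and starved values spread more widely for *acs-2*, *fat-7* and *mxl-3* than for *unc-68*. Levels of different genes are not comparable, since each has its own probes.

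Genes of the insulin pathway that runs from receptor to DAF-16 rose more often than genes in general. Of 18 members tested, 7 rose (38.9%, against 10.8% of all genes) and 1 fell, with a median change of 0.20. The receptor gene *daf-2* was at 9.72, 9.71, 9.78 and 9.86 in well-fed and 10.50, 10.47, 10.78 and 10.33 in starved worms, a rise of 0.75 (SE 0.09, adjusted p = 5.82e-05). The transcription factor gene *daf-16* itself was at 10.91, 10.89, 10.86 and 10.95 and 11.49, 11.44, 11.47 and 11.33, a rise of 0.53 (adjusted p = 7.51e-05). Both pairs of groups were clear of each other. The kinase gene *pdk-1* rose by 0.63, the insulin receptor substrate gene *ist-1* by 0.60 and the PI3-kinase genes *aap-1* and *age-1* by 0.40 and 0.33. The one member that fell was the kinase gene *sgk-1*, at -0.36. The members named as rising pass the insulin signal on, apart from *daf-16*, which that signal holds back.

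The ligands and the genes downstream of DAF-16 went both ways. Of 40 insulin-like peptide genes, 5 rose (12.5%) and 1 fell (2.5%). The largest rise was that of *ins-23*, at 7.63, 7.77, 7.27 and 7.89 in well-fed and 9.42, 8.92, 9.52 and 9.25 in starved worms (1.64, adjusted p = 1.41e-05). The others that rose were *ins-20*, *ins-2*, *ins-27* and *ins-17*, by between 0.45 and 0.84, and *ins-30* changed by -0.34. Without well-fed array 1 or 3 the count of rises was 3. Of 40 genes known to act downstream of DAF-16, 8 rose and 8 fell (20% each). The list was not split into genes that DAF-16 raises and genes that it lowers. These counts therefore do not tell how active DAF-16 was. Next to *mtl-1* and *hsp-12.6*, the long noncoding RNA *tts-1* rose by 1.1, *dod-23* by 1.02, *dod-6* by 0.54 and the catalase gene *ctl-1* by 0.52. Among those that fell *dod-17* changed by -1.58, the desaturase gene *fat-7* by -1.52 and *dct-5* by -1.14. The superoxide dismutase gene *sod-3*, often used as a readout of DAF-16, was at 4.75 ± 0.19 in well-fed and 4.76 ± 0.15 in starved worms (mean ± SD, n = 4), a difference of 0.01 (adjusted p = 0.956). Its level lay under the median of 5.86 over all genes on the N2 arrays, where a small change is harder to detect.

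Kinase complexes that sense nutrients and energy also had more rises than falls. Of 29 genes of TORC1, TORC2, the Rag and Ragulator proteins and AMPK, 12 rose (41.4%) and 1 fell. The gamma subunits of AMPK moved in both directions. The subunit gene *aakg-4* was at 6.90, 7.07, 6.71 and 6.92 in well-fed and 8.86, 8.36, 9.06 and 8.09 in starved worms, a 3.23-fold rise (1.69, SE 0.18, adjusted p = 1.85e-05), whereas *aakg-2* was at 9.59, 9.46, 9.40 and 9.20 and 8.74, 8.71, 8.58 and 8.61, a change of -0.75 (adjusted p = 5.08e-05). Neither gene had overlapping groups. Further rises were those of the sestrin gene *sesn-1* (0.57), of *rict-1* and *sinh-1* of TORC2 (0.52 and 0.65), of *aakg-5* (0.47) and of *crtc-1*, a coactivator that AMPK regulates (0.33). The kinase gene *let-363* (TOR) changed by 0.05 (adjusted p = 0.663). Of the 29, 6 rose when starved arrays 1 and 3 were left out. The gene *alfa-1*, deleted in the mutant strain, was at 9.21, 9.39, 9.11 and 9.28 in well-fed and 9.5, 9.23, 9.59 and 9.30 in starved N2, a difference of 0.16 (adjusted p = 0.25).

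Among 39 genes of autophagy and its regulation, 16 rose (41%) and 2 fell. The rises covered the receptors that bind cargo, namely *sqst-3*, *sqst-1* and *sqst-2* (p62 family, 1.13, 0.71 and 0.64), *allo-1* (0.67, adjusted p = 0.000413) and the mitophagy receptor *dct-1* (0.38). They also covered conjugation and membrane genes such as *atg-16.2*, at 7.21, 7.53, 7.28 and 7.54 in well-fed and 8.42, 8.13, 8.39 and 7.68 in starved worms (0.76, adjusted p = 0.00134), and *atg-5* (0.26). The TFEB gene *hlh-30* was at 10.08, 10.28, 10.22 and 10.16 and 10.42, 10.40, 10.23 and 10.28, a difference of 0.15 that did not pass (adjusted p = 0.172). The 2 genes that fell encode transcription factors. The Max-like factor gene *mxl-3*, a repressor of lysosomal lipase genes in fed worms, was at 10.21, 10.14, 10.38 and 9.84 in well-fed and 8.38, 9.41, 7.53 and 9.47 in starved worms (-1.44, adjusted p = 0.00479), and the Mondo factor gene *mml-1* changed by -0.49. The count of rises depended on single arrays. It was 7 without well-fed array 3, 9 without starved array 3 and 3 without starved arrays 1 and 3.

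The proton pump and the enzymes of lysosomes had the opposite balance. Of 19 subunit genes of the V-ATPase, which acidifies lysosomes, 12 fell (63.2%, against 11.6% of all genes) and 0 rose. The falls were small and even, with a median of -0.33. The list mean on the 4 starved arrays lay -0.24, -0.18, -0.29 and -0.23 from the mean of the well-fed arrays. The proteolipid subunit gene *vha-1* was at 12.30, 12.31, 12.30 and 12.19 in well-fed and 11.89, 11.88, 11.82 and 11.89 in starved worms (-0.41, adjusted p = 0.000279), and *vha-4* changed by -0.42. Of 45 genes for lysosomal and gut proteases, 18 fell and 5 rose. The prolyl carboxypeptidase gene *pcp-2* was at 10.11, 10.28, 10.32 and 10.18 and 8.74, 9.03, 8.76 and 9.07, a change of -1.32 (adjusted p = 9.04e-07) without overlap. The cathepsin B-like *cpr-9* changed by -0.96 and the aspartyl protease gene *asp-13* by -0.62. The count of falls among the proteases was 11 without starved arrays 1 and 3, and the rises were 1 without well-fed array 3, 2 without starved array 3 or starved arrays 1 and 3 and 3 without starved array 1 or well-fed array 2.

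Lipase genes did not move as a group. Of 8 lysosomal lipase genes, *lipl-2* rose by 1.05 (adjusted p = 0.000234), from 9.10, 9.03, 9.08 and 9.37 to 10.27, 10.07, 10.68 and 9.77, while *lipl-1* changed by -0.68 (adjusted p = 0.00244) and *lipl-6* by -0.80 (adjusted p = 0.0432). The call of *lipl-6* was lost when any of 5 single arrays was left out, among them starved array 1 (adjusted p = 0.121). Among 21 other lipases and their partners 2 rose, the fasting-induced lipase gene *fil-1* by 1.06 (adjusted p = 0.000694) and *lid-1* by 0.25 (adjusted p = 0.043), and 6 fell, among them *lips-14*, *lips-7* and *lips-5* (-1.01, -0.88 and -0.77). The call of *lid-1* was lost when any of 6 single arrays was left out, starved array 3 among them (adjusted p = 0.121). The triglyceride lipase gene *atgl-1* differed by 0.10 (adjusted p = 0.535).

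Many genes that burn fatty acids fell in starved worms. Of 46 genes of beta-oxidation in mitochondria and peroxisomes, 23 fell (50%) and 0 rose, with a median change of -0.41. Mitochondrial members included *acs-2*, the carnitine palmitoyltransferase gene *cpt-5*, at 6.66, 6.82, 6.48 and 6.57 in well-fed and 5.47, 5.70, 5.10 and 5.69 in starved worms (-1.14, adjusted p = 5.62e-05), *cpt-4* (-1.11), *acdh-1* (-1.61) and *acdh-9* (-0.71). Peroxisomal members included the acyl-CoA oxidase genes *acox-1.6* (-0.77, adjusted p = 5.09e-05) and *acox-1.4* (-0.96), and *maoc-1*, *dhs-28* and *daf-22* (-0.52, -0.63 and -0.57), which shorten the side chains of ascaroside pheromones. The mean of the list on the 4 starved arrays was -0.41, -0.37, -0.81 and -0.37 relative to the well-fed mean, so that starved array 3 was the lowest. The nuclear receptor gene *nhr-49*, which drives *acs-2* in fasted worms, differed by -0.04 (adjusted p = 0.857).

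Desaturases and elongases were divided. Of 25 genes for making, desaturating and elongating fatty acids, 10 fell and 4 rose. The stearoyl desaturase gene *fat-7* was at 9.80, 9.78, 9.56 and 9.62 in well-fed and 8.10, 8.93, 6.80 and 8.85 in starved worms (-1.52, SE 0.32, adjusted p = 0.00291), and starved array 3 was lowest. Its near relative *fat-6* differed by 0.03 (adjusted p = 0.92). The palmitoyl desaturase gene *fat-5* moved the other way, from 5.02, 5.18, 5.03 and 5.19 to 7.22, 6.31, 5.30 and 6.18 (1.15, adjusted p = 0.0383). The rise of *fat-5* missed the threshold when any of 7 single arrays was left out, with an adjusted p of 0.123 without starved array 1. The elongase genes *elo-5*, *elo-4* and *elo-9* changed by -1.43, -1.17 and -1.06, and the synthase gene *fasn-1* by -0.52. The count of falls was 6 without starved array 1 and 5 without arrays 1 and 3, and the rises numbered 2 without starved array 4, 2 without well-fed array 1 or 2 and 1 without starved arrays 1 and 3. Among 47 acyl-CoA synthetase and lipid-binding genes 19 fell, with *lbp-5*, *lbp-3* and *acs-20* at -0.85, -0.63 and -0.79, and *acs-3* was the largest of the 5 that rose, at 1.08 (adjusted p = 4.32e-05). These rises numbered 3 without starved array 2 and 2 without starved arrays 1 and 3, where the falls numbered 12. Of 21 sphingolipid genes 8 fell and 0 rose, among them all of *sptl-1*, *sptl-2* and *sptl-3* of serine palmitoyltransferase (-0.52, -0.59 and -0.61).

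In central carbon metabolism falls outnumbered rises, while genes of stored sugar went both ways. Glycolysis had 4 falls and 0 rises among 19 genes, the largest being that of the lactate dehydrogenase gene *ldh-1*, from 11.06, 11.06, 11.15 and 11 to 10.26, 10.37, 10.67 and 10.42 (-0.64, adjusted p = 7.34e-05). In gluconeogenesis fructose bisphosphatase (*fbp-1*) was at 10.54, 10.50, 10.71 and 10.55 in well-fed and 9.69, 9.80, 9.5 and 9.72 in starved worms (-0.90, adjusted p = 2.32e-06), and pyruvate carboxylase (*pyc-1*) changed by -0.77 (adjusted p = 6.17e-05). Neither *fbp-1* nor *pyc-1* had overlapping groups. The key enzyme gene *pck-1* was at 10.49, 10.32, 10.62 and 10.32 and 9.54, 9.76, 10.79 and 9.48, a difference of -0.55 that did not pass (adjusted p = 0.0863) and that starved array 3 set apart. Without that array *pck-1* passed, with an adjusted p of 0.00041. The gene of the glyoxylate enzymes, *icl-1*, differed by -0.59 (adjusted p = 0.0788, and 0.0299 without starved array 1). The citric acid cycle had 7 falls among 29 genes, led by *aco-1* (-0.67), *suca-1* (-0.56) and *sdha-1* (-0.34), and between 3 and 6 when 1 array was left out. Without well-fed array 2 or 3 it was 3, and without well-fed array 4, starved array 1, starved array 3 or both of the latter it was 4. Of 17 genes of trehalose and glycogen, 4 fell and 3 rose. The glycogenin gene *gyg-2* rose by 0.73 (adjusted p = 5.78e-05) and the trehalose synthesis genes *tps-2* and *gob-1* changed by -0.66 and -0.35.

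The respiratory chain was read from 2 genomes. Of 46 nuclear genes for its complexes and the ATP synthase, 7 fell (15.2%) and 0 rose. Among the falls *gas-1* of complex I was at -0.40 and *ucr-2.2* of complex III at -0.50. Of the 12 genes of the mitochondrial DNA on the array, 8 fell (66.7%) and 0 rose, with a median of -0.56. These genes were looked at after their values were seen. The complex I gene ND4 was at 8.89, 9.47, 8.38 and 8.94 in well-fed and 7.85, 7.53, 7.61 and 7.32 in starved worms (-1.34, SE 0.20, adjusted p = 0.00021), and its neighbour in the same complex ND4L changed by -1.11 (adjusted p = 0.00179). Both had no overlap. The cytochrome b gene CYTB changed by -0.60 (adjusted p = 0.00207), COX2 by -0.57, ND2 by -0.55, ATP6 by -0.45, COX3 by -0.42 and ND1 by -0.28. The count of falls was 3 without well-fed array 2 or starved array 4 and 5 without well-fed array 4. In a fit to the 8 N2 arrays alone it was 4. The other 4 mitochondrial genes did not pass with all arrays, from ND6 at -0.80 (adjusted p = 0.113) to ND5 at -0.18 (adjusted p = 0.688).

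Many enzymes that break down amino acids had lower transcript levels in starved worms. Of 42 such genes, 20 fell (47.6%) and 0 rose. Along the kynurenine pathway of tryptophan, *tdo-2*, which opens it, changed by -0.79, *kynu-1* by -0.65 (adjusted p = 7.18e-05), *haao-1* by -0.79 and *nkat-1*, at 5.88, 5.70, 5.92 and 6.17 in well-fed and 4.68, 4.79, 4.80 and 5.03 in starved worms, by -1.1 (adjusted p = 5.69e-05). Along the shunt that disposes of propionate, *acdh-1* was at 11.41, 11.80, 11.13 and 11.35 and 9.93, 10.85, 7.90 and 10.55 (-1.61, adjusted p = 0.0129), and *ech-6*, *hach-1* and *hphd-1* changed by -0.69, -0.74 and -1.01. The genes of the first step and of later steps were thus lower in both routes. In the methionine and phosphatidylcholine list 11 of 29 fell and 2 rose. The transsulfuration genes *cth-1* and *cbs-1* changed by -0.97 and -0.66, *sams-1*, which makes S-adenosylmethionine, by -0.56, and the phosphoethanolamine methyltransferase genes moved apart, with *pmt-2* at -0.39 and *pmt-1* at 0.33.

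Transporter genes fell more often than they rose. Of 26 peptide and amino acid transporter genes 8 fell, among them the intestinal peptide transporter gene *pept-1*, at 10.07, 10.01, 10.10 and 9.85 in well-fed and 8.94, 9.43, 8.72 and 9.61 in starved worms (-0.84, adjusted p = 0.00121), and the amino acid transporter genes *aat-1* (-1.11) and *aat-4* (-1.02). The 3 that rose were *aat-8*, *aat-9* and *snf-3*, by between 0.28 and 0.54. That count of rises was 7 without starved array 4 and 0 without starved arrays 1 and 3. Of 24 sugar and zinc transporter genes 8 fell and 2 rose, with the sugar transporter gene *swt-5* at -1.15. Of 53 ABC transporter genes 20 fell and 4 rose, the falls led by *pgp-2* (-1.02, adjusted p = 1.23e-05), whose protein sits on lysosome-related gut granules, *pmp-1* of peroxisomes (-0.96) and *pgp-9* (-0.99). The rises among them numbered 1 without well-fed array 3 and 1 without starved arrays 1 and 3, and 2 without starved array 3 or well-fed array 2.

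In contrast, genes for the synthesis of protein were nearly level. Of 71 cytosolic ribosomal protein genes, 1 rose, 1 fell and the median change was 0.01, and of 33 proteasome genes 1 rose and 0 fell. Both counts lie under the shares of all genes. The mitochondrial ribosomal protein genes had 2 rises and 2 falls among 66, the translation factors 3 and 3 among 41 and the aminoacyl-tRNA synthetases 1 and 0 among 31. Of 56 genes for building ribosomes, 7 rose (12.5%) and 0 fell, and 2 rose without starved arrays 1 and 3. With all arrays the largest rise was that of the kinase gene *riok-1* (0.61, adjusted p = 0.000941). On the arrays the level of a transcript is relative to the others, so a loss of all of them together would not be seen.

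**Figure D2:**
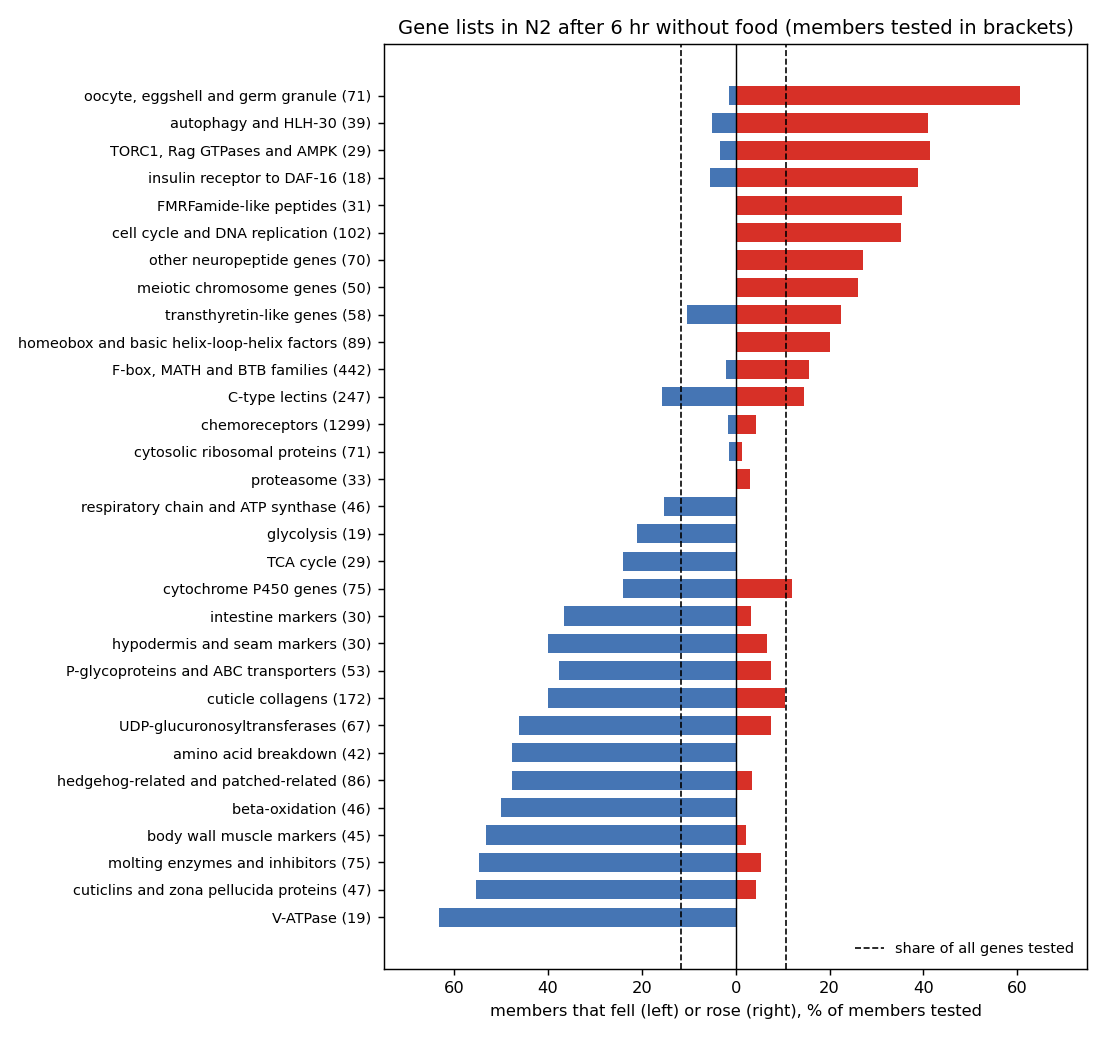
Share of the members of 31 gene lists that rose (red, to the right) or fell (blue, to the left) in N2 after 6 hr without food, in percent of the members tested, whose number stands in brackets. Dashed lines mark the shares of all genes, 10.8% rising and 11.6% falling, and the V-ATPase list has the longest bar to the left and the oocyte list the longest to the right.

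Stress genes, of which *mtl-1* and *hsp-12.6* also stand among the DAF-16 genes above, were found on both sides. Among 39 genes of the oxidative stress list, 5 rose (12.8%) and 6 fell (15.4%). Next to *mtl-1*, the glutathione peroxidase gene *gpx-6* was at 4.91, 4.77, 4.91 and 4.47 in well-fed and 6.72, 6.63, 6.79 and 6.10 in starved worms (1.79, adjusted p = 8.11e-06). A further peroxidase gene, *gpx-3*, rose by 1.01 and the catalase gene *ctl-3* by 0.87, whereas *msra-1*, which repairs oxidized methionine, changed by -0.84. The transcription factor gene *skn-1*, which drives many detoxification genes, differed by -0.0011 (adjusted p = 0.994), and its target *gst-4* was at 6.49, 6.52, 6.40 and 6.43 in well-fed and 5.0, 5.39, 4.55 and 5.19 in starved worms (-1.43, adjusted p = 2.41e-05). Of 12 small heat shock protein genes 4 rose and 2 fell, with *sip-1* at 0.78, *hsp-43* at 0.45, *hsp-12.1* at -0.85 and *hsp-17* at -0.59. Of 45 larger chaperone and J protein genes, 7 fell (15.6%) and 3 rose (6.67%), with *hsp-70* at -0.93 (adjusted p = 0.00026), and 4 fell without starved arrays 1 and 3. Of 30 genes that serve folding in the endoplasmic reticulum 10 fell, among them the disulfide isomerase genes *pdi-6* and *pdi-2* (-0.64 and -0.56) and *dnj-7* (-0.73), and the sensor gene *atf-6* rose by 0.56. That count of falls was 5 without starved arrays 1 and 3.

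Of 16 genes of the osmotic and salt list 5 fell and 2 rose. The water channel genes *aqp-1* and *aqp-4* changed by -0.88 (adjusted p = 1.23e-05) and -0.67, and *aqp-2* rose by 0.60. Among 11 genes of the hypoxia list, 5 fell and 1 rose. The prolyl 4-hydroxylase gene *phy-2*, whose enzyme modifies collagens, was at 10.42, 10.37, 10.86 and 10.23 in well-fed and 8.71, 9.08, 9.35 and 9.23 in starved worms, a change of -1.38 (SE 0.18, adjusted p = 6.82e-05), without overlap. The HIF-1 target *cysl-2* and the flavin monooxygenase gene *fmo-2* changed by -0.77 and -0.69, and *ethe-1* of sulfide breakdown rose by 0.62.

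Genes of the cuticle and of molting were lower in large numbers. Of 172 cuticle collagen genes 69 fell (40.1%) and 18 rose, of 47 cuticlin and zona pellucida genes 26 fell (55.3%) and 2 rose, of 86 hedgehog-related and patched-related genes 41 fell (47.7%) and 3 rose, and of 75 molting enzymes and inhibitors 41 fell (54.7%) and 4 rose. The collagen with the smallest p among those that fell was *col-89*, at 9.04, 9.01, 8.95 and 9.07 in well-fed and 7.94, 7.94, 7.76 and 8.24 in starved worms (-1.05, adjusted p = 4.33e-05). Other collagen genes rose, such as *col-95*, at 6.27, 5.83, 5.74 and 6.16 and 6.87, 7.12, 6.88 and 6.91 (0.94, adjusted p = 2.41e-05), *col-42* (0.87) and *col-103* (0.94). Collagens are alike in sequence and some may share probes. Of the cuticlins, which line the cuticle and its ridges, *cutl-28*, *cutl-18* and *cut-6* changed by -1.79, -1.23 and -0.82.

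Secreted hedgehog-like proteins and patched-like membrane proteins are needed in the worm for molting and for the epidermis. The gene *hog-1* changed by -1.23 (adjusted p = 0.000348), *grd-5* by -0.75 and *ptr-6*, at 9.30, 9.23, 9.35 and 9.16 in well-fed and 8.55, 8.33, 7.84 and 8.22 in starved worms, by -1.03 (adjusted p = 0.00017). Of the astacin proteases, some of which are needed for shedding or building cuticle, *nas-8* was at 7.77, 7.95, 8.0 and 7.97 and 6.92, 6.73, 6.42 and 6.99 (-1.15, adjusted p = 5.61e-06), *nas-6* changed by -1.26 and *nas-22* by -0.70. The family was not uniform, since *nas-9* rose from 7.42, 7.34, 7.29 and 7.53 to 8.86, 8.66, 9.12 and 8.43 (1.37, adjusted p = 1.41e-05). Neither of these nas genes had overlapping groups. The list means of starved array 3 lay farthest from the well-fed arrays, with -0.44, -0.30, -0.88 and -0.24 for the cuticlins, -0.47, -0.34, -0.91 and -0.28 for the hedgehog and patched list and -0.39, -0.32, -0.76 and -0.27 for the molting list on starved arrays 1 to 4. All 4 starved arrays were below all well-fed arrays in each of these 3 lists. With starved arrays 1 and 3 left out the falls numbered 37 collagens, 14 cuticlins, 32 hedgehog-related and patched-related genes and 27 molting genes, and 11 collagens rose.

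**Figure D3:**
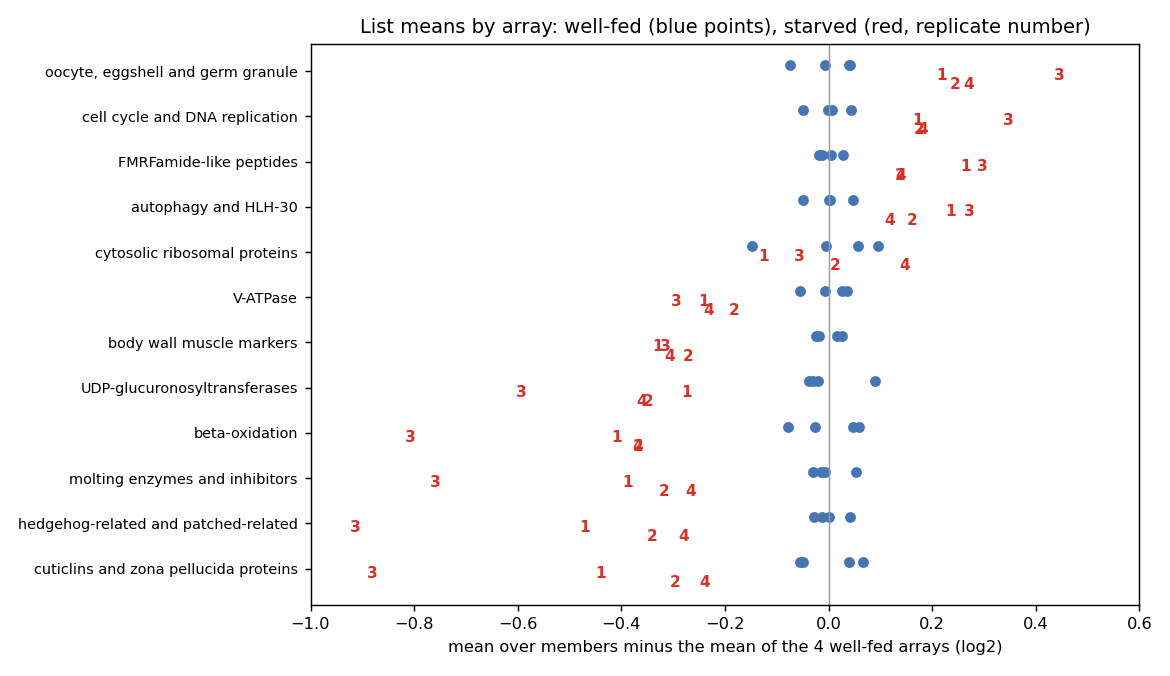
Mean log2 value over the members of 12 lists on each N2 array, minus the mean of the 4 well-fed arrays (horizontal axis). Blue points are well-fed arrays and red digits are starved arrays by replicate number. In 11 of the lists the starved arrays lie on 1 side of the well-fed ones, and in the ribosomal protein list they overlap.

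Regulators of the molting cycle and of larval timing were found on both sides. Of 32 such genes 8 fell and 7 rose. Those that fell include *lin-42*, the worm Period gene, at 10.23, 10.56, 10.83 and 10.32 in well-fed and 8.51, 10.02, 8.77 and 10.17 in starved worms (-1.11, adjusted p = 0.0102), and the transcription factor genes *bed-3* (-1.1), *blmp-1* (-0.98), *myrf-1* (-0.89) and *grh-1* (-0.63), which act in the molting cycle, and *dre-1* (-0.63). Those that rose include *lin-14* (0.31), *hbl-1* (0.49) and *lin-41* (0.42), which hold back later larval fates. Without starved arrays 1 and 3, 5 of these genes fell and 2 rose, and the rises numbered 3 without well-fed array 3 and 4 without well-fed array 1, starved array 1 or starved array 3. Of 5 collagen genes that mark late stages 4 fell, with *rol-6* at -0.99 (adjusted p = 0.000381), *bli-2* at -1.22, *bli-1* at -1.14 (adjusted p = 0.0143) and *col-7* at -0.41. The values of *bli-1* overlapped, at 10.57, 11.20, 11.25 and 10.93 in well-fed and 9.29, 10.72, 8.88 and 10.51 in starved worms, and the list mean on starved arrays 1 to 4 lay -1.03, -0.31, -1.13 and -0.29 from the well-fed mean. That count of falls was 2 without starved array 1, well-fed array 2 or well-fed array 3, and 1 without starved arrays 1 and 3. The fifth, the adult collagen gene *col-19*, was at 11.41 ± 0.18 in well-fed and 11.72 ± 0.18 in starved worms (mean ± SD, n = 4, adjusted p = 0.13).

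Genes of the female germline rose in large numbers. Of 71 genes of oocytes, the eggshell and germ granules, 43 rose (60.6%) and 1 fell, the highest share of rises among the lists. Most changes were modest, with a median of 0.28. The caveolin gene *cav-1*, which is active in the germline, was at 5.63, 5.37, 5.34 and 5.95 in well-fed and 6.92, 6.71, 7.56 and 7.49 in starved worms (1.6, SE 0.19, adjusted p = 3.75e-05), and *perm-2* of the eggshell barrier at 10.55, 10.29, 10.22 and 10.56 and 11.31, 11.30, 11.60 and 11.45 (1.01, adjusted p = 2.41e-05). In both the starved arrays were all above the well-fed ones. The maternal regulators *pie-1*, *nos-2*, *puf-3* and *oma-1* rose by 0.56, 0.59, 0.49 and 0.34, the P granule genes *meg-2*, *meg-3* and *meg-1* by 0.64, 0.63 and 0.51, and the egg coat genes *egg-1* and *egg-2* by 0.49 and 0.48. The gene *cpg-2*, whose proteoglycan is part of the eggshell, rose by 0.47. In whole worms a change in the number of cells of a type and a change in RNA per cell cannot be told apart. The list mean on starved arrays 1 to 4 was 0.22, 0.24, 0.44 and 0.27 above the well-fed mean, highest on array 3. The count of rises was 27 without starved array 3, 27 without well-fed array 3 and 19 without starved arrays 1 and 3.

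Genes of cell division and meiosis also rose more often than they fell. Of 102 genes of the cell cycle and DNA replication, 36 rose (35.3%) and 0 fell. The cyclin B gene *cyb-2.1* was at 8.38, 8.33, 8.3 and 8.51 in well-fed and 8.92, 9.05, 9.05 and 9.03 in starved worms (0.63, adjusted p = 0.000134), the checkpoint kinase gene *chk-1* rose by 0.42, *wee-1.3*, which holds cell division back, by 0.40 and *cdk-2* by 0.38. Of 50 meiotic genes 13 rose and 0 fell, among them *dsb-2*, which is needed for meiotic DNA breaks (0.42), and the synaptonemal complex gene *syp-1* (0.35). The cell cycle count was 22 without starved array 3, 21 without well-fed array 3 and 15 without starved arrays 1 and 3. The meiotic count was 8 without starved array 3 and 2 without arrays 1 and 3.

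Sperm genes fell about as often as all genes, and yolk genes moved both ways. Of 67 genes for major sperm proteins and other sperm products, 3 rose (4.48%) and 8 fell (11.9%, near the share of all genes). The sperm genes *spe-4* and *spe-41* were at -0.40 and -0.38 and *ssp-37* at 1.01. The major sperm protein genes are near copies of each other and their values are uncertain. All 5 vitellogenin genes tested passed, 3 higher and 2 lower. The genes *vit-2*, *vit-5* and *vit-6* rose by 0.56, 0.46 and 0.33, from 11.70, 11.84, 11.70 and 12.01 to 12.26, 12.36, 12.45 and 12.45 in the case of *vit-2*. The genes *vit-4* and *vit-1* fell, *vit-4* from 10.27, 10.20, 10.36 and 10.40 to 8.52, 9.06, 7.61 and 9.38 (-1.67, adjusted p = 0.000343) and *vit-1* from 9.37, 9.36, 9.14 and 9.44 to 8.08, 7.94, 8.05 and 7.99 (-1.31, adjusted p = 1.18e-06). These yolk proteins, made by the adult intestine, are also alike in sequence, and whether the probes of 1 gene read another was not tested.

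Immune genes were found on both sides. Of 247 C-type lectin genes, whose secreted products often respond to bacteria, 36 rose (14.6%) and 39 fell (15.8%). The lectin gene with the smallest p, *clec-80*, was at 9.41, 9.62, 9.56 and 9.31 in well-fed and 8.07, 7.94, 7.87 and 8.09 in starved worms (-1.48, adjusted p = 1.11e-07), and *clec-264* rose by 1.47. Among genes for lysozymes, saposin-like proteins, thaumatins and antimicrobial peptides, 14 rose (11.5%) and 20 fell (16.4%). The saposin-like gene *spp-8* was at 9.79, 9.93, 9.89 and 10.02 and 11.10, 10.81, 11.17 and 10.83 (1.07, adjusted p = 2.8e-06), whereas the lysozyme gene *lys-2* changed by -1.28 and the infection response gene *irg-4* by -0.99. Without starved arrays 1 and 3, 22 lectin genes rose and 12 genes of the second list fell. The pals family, whose members respond to intracellular pathogens, had 12 rises among 37 genes (32.4%) and 0 falls. Its *pals-32* was at 5.60, 5.55, 5.37 and 5.44 and 7.55, 7.16, 7.68 and 6.97 (1.85, adjusted p = 9.07e-07) and *pals-33* rose by 1.65.

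Genes of detoxification enzymes fell more often than they rose. Of 67 UDP-glucuronosyltransferase genes, which attach sugars to foreign and hormone-like molecules, 31 fell (46.3%) and 5 rose, or 2 without starved arrays 1 and 3. The gene *ugt-62* was at 8.27, 8.56, 8.82 and 8.93 in well-fed and 7.06, 7.04, 6.76 and 7.55 in starved worms (-1.54, adjusted p = 2.74e-05), and *ugt-53*, *ugt-17* and *ugt-47* changed by -1.34, -1.13 and -0.89. Of 48 glutathione S-transferase genes 14 fell and 4 rose, of 75 cytochrome P450 genes 18 and 9, and of 30 short-chain dehydrogenase genes 12 and 2. Of 21 genes for flavin monooxygenases and alcohol or aldehyde dehydrogenases 8 fell and 0 rose. Among the genes that rose were *dhs-31*, at 1.22, and *cyp-32B1*, at 0.94 (adjusted p = 0.000401), and 2 UDP-glucuronosyltransferase genes rose by at least 2-fold. The falls among the transferases of glutathione numbered 9 without well-fed array 3 and 6 without starved arrays 1 and 3. The P450 rises numbered 5 without well-fed array 1 and 2 without starved arrays 1 and 3.

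By tissue, markers of body wall muscle fell most often. Of 45 such genes 24 fell (53.3%) and 1 rose. The ryanodine receptor gene *unc-68*, the calcium release channel of muscle, was at 9.74, 9.71, 9.78 and 9.77 in well-fed and 8.97, 8.99, 9.02 and 9.07 in starved worms. The 8 values were tight, and the change of -0.74 (SE 0.06) had an adjusted p of 1.22e-06. Attachment genes *pat-6*, *pat-2*, *unc-98* and *unc-97* changed by -0.81, -0.70, -0.76 and -0.65, the acetylcholine receptor subunit genes *lev-8* and *unc-29* by -0.86 and -0.75 and the troponin I gene *tni-1* by -1.12. The myosin genes moved less, with *myo-3* at -0.26 (adjusted p = 0.0201) and *unc-54* at 0.0024 (adjusted p = 0.987). The list mean was -0.33, -0.27, -0.32 and -0.31 on starved arrays 1 to 4 relative to the well-fed mean, so the 4 starved arrays were close to each other here.

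Markers of the intestine and hypodermis also fell more often than they rose. Of 30 intestine markers 11 fell and 1 rose. The acid phosphatase gene *pho-1* changed by -1.14 (adjusted p = 0.000722), the microvillar actin gene *act-5* by -0.72 and the intermediate filament gene *ifp-1* by -0.80. The gene of the gut transcription factor ELT-2, *elt-2*, differed by 0.15 (adjusted p = 0.22), and the gut channel gene *gtl-1* rose by 0.67. Of 30 hypodermis and seam markers 12 fell and 2 rose, with *che-14*, the attachment gene *mup-4* and the fusogen gene *aff-1* at -1.26, -0.56 and -0.85. That count of falls was 7 without starved array 1, starved array 3 or well-fed array 3 and 6 without starved arrays 1 and 3. In the pharynx 5 of 29 markers fell (17.2%) and 4 rose (13.8%). The median change was 0.10, and 20 of the 29 were higher in starved worms. The gland genes *phat-1* and *phat-2* were at -0.94 and -0.70, and *dod-6* rose by 0.54. The symbol prefix idpp, of disordered proteins found in the pharynx, had 9 falls among 16 genes (56.2%), with *idpp-7* at -1.18, while *idpp-16* rose by 1.09.

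Neuron markers fell more often than they rose. Of 60 such genes 14 fell (23.3%, against 11.6% of all genes) and 5 rose (8.33%), and 3 rose without starved arrays 1 and 3. The list mean on starved array 3, 8.01, lay within the range of the well-fed arrays, 7.97 to 8.02. The aromatic amino acid decarboxylase gene *bas-1* changed by -0.79 (adjusted p = 4.93e-05), the touch neuron tubulin gene *mec-12* by -0.58 and the calcium channel gene *egl-19*, which muscle also uses, by -0.53. The gene *tbh-1*, whose enzyme makes octopamine, a transmitter of the unfed state in worms, rose from 9.03, 8.68, 8.52 and 8.79 to 9.86, 9.76, 10.07 and 9.68 (1.09, adjusted p = 0.000124). Neuropeptide genes had no falls with all arrays. Of 31 flp genes, which encode FMRFamide-like peptides, 11 rose (35.5%), and of 70 other neuropeptide genes 19 rose (27.1%). The gene *flp-10* was at 10.65, 10.63, 10.50 and 10.61 in well-fed and 11.20, 11.16, 11.38 and 11.07 in starved worms (0.60, adjusted p = 5.27e-05), *flp-27* rose by 0.58, *nlp-53* by 0.51 and *nlp-12* by 0.50. The count of flp genes that rose was 7 without starved arrays 1 and 3. Cilia markers were mostly level, with 3 falls and 1 rise among 84, and of 1299 chemoreceptor genes 56 rose and 21 fell, shares under those of all genes. The chemoreceptor list mean was 3.75 to 3.84 on the well-fed and 3.81 to 3.84 on the starved arrays. The median over all genes on the N2 arrays was 5.86, so these probe sets were dim on average and small changes were harder to detect. The receptor gene *str-168* changed by -1.18 (adjusted p = 9.73e-07), and *srh-132* rose by 1.35. The count of chemoreceptor rises was 34 without starved array 1, 37 without well-fed array 2, 35 without well-fed array 3 and 36 without starved arrays 1 and 3, where 12 fell.

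Families of transcription factors differed in their counts. Of 89 homeobox and basic helix-loop-helix genes, 18 rose and 0 fell, with the proneural genes *hlh-14* and *hlh-3* at 0.85 and 0.54. Of 33 genes for bZIP and related stress factors 9 rose and 3 fell, and the largest rise was that of *ces-2*, at 4.84, 4.82, 4.84 and 4.66 in well-fed and 6.79, 6.17, 6.61 and 7.19 in starved worms (1.90, adjusted p = 5.48e-06). The nuclear hormone receptor family, with 276 genes tested, had 30 falls and 18 rises, near the shares of all genes for falls and under them for rises, which numbered 9 without starved arrays 1 and 3. Its *nhr-137* was at 8.44, 8.51, 8.49 and 8.3 and 6.71, 7.36, 6.12 and 7.19 (-1.59, adjusted p = 5.84e-05), and *nhr-35* rose by 0.61. Of 442 genes of the F-box, MATH and BTB families 69 rose (15.6%) and 9 fell, with *fbxa-48* at 1.8. Without starved arrays 1 and 3, 34 rose, and the falls numbered 5 without well-fed array 1 or 2. In the dauer and TGF-beta list 5 of 29 genes fell (17.2%) and 4 rose (13.8%). The largest fall was that of *daf-6* (-1.43, adjusted p = 0.0019), which shapes the sensory channel made by glia, and *dhs-16*, *hsd-3* and *daf-36*, which acts early in the making of the DAF-12 ligand, changed by -0.86, -0.59 and -0.50. The SMAD gene *sma-2* and the nuclear receptor gene *daf-12* rose by 0.45 and 0.26. The falls numbered 3 and the rises 1 without starved arrays 1 and 3, and the rises 8 without starved array 4.

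Families were also counted by the prefix of the gene symbol, for the 117 prefixes with at least 15 genes tested. The highest shares of rises were those of taf, the TBP-associated factors of transcription start (8 of 17, 47.1%), mdt, the Mediator subunits (8 of 19, 42.1%), flp (11 of 31, 35.5%), wdr, WD-repeat proteins (5 of 15, 33.3%), pals, ztf, zinc finger factors (7 of 23, 30.4%), lido and the T-box family tbx (5 of 17 each, 29.4%). The rises in the transcription machinery were small, with *taf-10* at 0.33, *taf-9* at 0.27 and *mdt-26* at 0.32, and *mdt-15*, a Mediator subunit that regulates fat genes, went from 11.03, 11.08, 10.97 and 10.96 to 11.38, 11.34, 11.51 and 11.20 (0.35, adjusted p = 0.00421). In the T-box family *tbx-36* rose by 0.72. The highest shares of falls were those of vha (11 of 18, 61.1%), ptr (14 of 24, 58.3%), nep, the neprilysin peptidases (15 of 26, 57.7%), idpp, acs (12 of 23, 52.2%), dpy (12 of 24), lron, secreted leucine-rich repeat proteins (7 of 15, 46.7%) and ugt. The neprilysin gene *nep-15* was at 6.47, 6.33, 6.64 and 6.70 in well-fed and 4.65, 5.42, 4.96 and 5.47 in starved worms (-1.41, adjusted p = 0.000157). The dpy genes, named for short, stout mutants, included *dpy-5* at -1.14 and *dpy-14* at 0.96, both of which encode cuticle collagens.

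**Figure D4:**
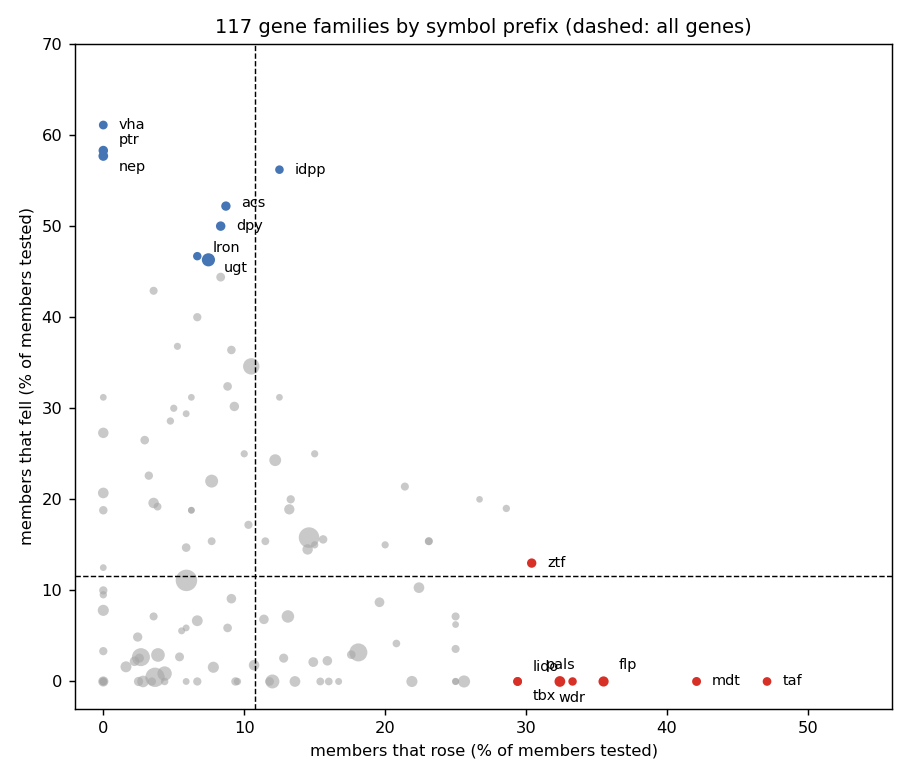
Each point is a gene family by symbol prefix, 117 in all, with the percent of its tested members that rose (horizontal) and fell (vertical), and a larger point for a larger family. The 8 families with the highest share of rises are red, the 8 with the highest share of falls are blue, and dashed lines mark the shares of all genes, 10.8% and 11.6%. Few families lie high on both axes.

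By chromosome the shares of genes that rose ran from 8.13% on X to 12.9% on I and III, and of genes that fell from 9.75% on V to 13.8% on X, apart from the mitochondrial DNA. The median array level was lower on V and X, at 5.04 and 5.21, than on III and I, at 7.18 and 7.23. The shares by chromosome were not corrected for this level. Of 18812 protein-coding genes 12.9% rose and 14.6% fell. Of 5972 genes of the class ncRNA 4.64% rose and 2.60% fell, at a median array level of 4.29 against 6.86 for protein-coding genes, so that most of these probe sets were dim and small changes were harder to detect there.

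The same 6 hr comparison in worms carrying *alfa-1(ok3062)*, with its own 8 arrays, gave 2791 genes that rose (10.9%) and 3649 that fell (14.3%). Of the 2759 genes that rose in N2, 2671 were also higher in the starved mutant (96.8%, against 47.5% of all genes) and 1466 passed there (53.1%). Of the 2948 that fell in N2, 2907 were also lower (98.6%) and 2234 passed (75.8%). No gene passed in opposite directions in the 2 strains. The test of the difference between the strains' responses passed for 0 genes by limma (smallest adjusted p = 0.735), with 1641 at an unadjusted p under 0.05. Thus no change described above was shown to be particular to N2, and a p that misses the threshold does not show that the responses were the same. For *mtl-1* the change was 4.32 in N2 and 3.77 in the mutant, for *acs-2* -2.17 and -2.17, and for *F26A10.6* -1.82 and -0.82. The oocyte list had a median change of 0.28 in N2 and 0.09 in the mutant, where 13 of 71 rose, and the beta-oxidation list -0.41 and -0.44. No member of either list passed the test of the strain difference. Whether the list medians or counts differ between the strains was not tested.

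**Figure D5:**
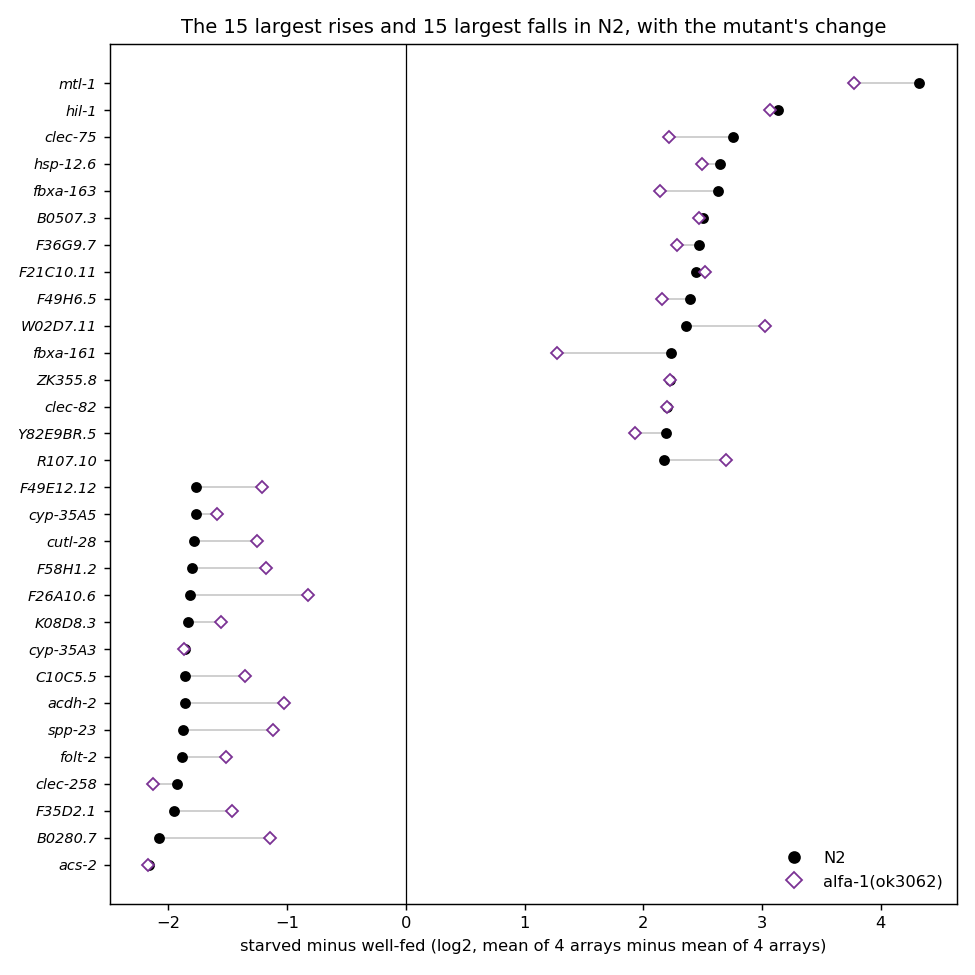
Starved minus well-fed log2 change of the 15 largest rises and 15 largest falls in N2 (black circles), with the change of the same gene in *alfa-1(ok3062)* (open diamonds). Each point is the mean of 4 arrays minus the mean of 4 arrays. All 30 genes have the same sign in both strains. The genes were chosen for their size in N2, so a smaller change in the mutant for many of them is no finding.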

How the data were processed

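Total RNA of whole worms was hybridised to 16 Affymetrix C. elegans arrays, of which the 4 starved and 4 control arrays of N2 are compared here. The deposited values are on the log2 scale, 1 per probe set. The authors' processing notes give RMA and Partek as the tools, without versions. The method RMA subtracts background, equalizes the distributions of the arrays and summarizes probes, which removes any shift common to most transcripts. Values ran from 1.84 to 14.2, with array medians between 5.80 and 5.85 for N2.

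The platform table paired 25546 of 29317 probe sets with 1 gene, and 25495 probe sets matched a RefSeq gene. Where a gene had several, the probe set brightest on average stood for it, which left 25498 genes. Limma 3.58.1 (R 4.3.3) fitted the 4 groups over the 16 arrays together, leaving 12 residual degrees of freedom and 1 shared estimate of the spread. Benjamini-Hochberg adjustment ran over the whole table, with 0.05 as the threshold. Tables and figures used Python (3.11.15) with matplotlib (3.10.9), numpy (2.4.6) and pandas (2.3.3). The fit was checked on simulated data.

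Membership of the 73 gene lists was set from general knowledge. The comparison and the lists were chosen with earlier results of these data known. The rule for naming genes took the 15 largest rises and falls among genes that passed without overlap, the 4 members of each list with the smallest p, 2 members of each of the 8 families with the highest shares of rises or falls, and *alfa-1*, *hlh-30* and *daf-16*. Other genes in the text were picked with their values in view. Alternatives were a fit without each N2 array, with a replicate block or to N2 alone, other scalings (median centring, quantile, cyclic loess), weights for arrays, an intensity trend, dim probe sets left out, every probe set used, a minimum fold of 1.5, the methods' t-test, unadjusted p-values and, added later, both outlying starved arrays left out. Promoter and protein sequences were not used here.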

Additional observations from a re-analysis of the deposited data

Results flagged for a closer look

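In each group of 4 arrays, the array farthest from the others was compared with the spread of the group for the 295 genes of the text. In 29 of 590 groups the gap to the nearest other array took a larger share of the whole range than Dixon's limit allows, and chance alone flags about 5% of groups. Starved array 3 was the low one for *bed-3* (8.45, below 9.77 to 10.02, gap 0.840 of the range), *cpt-4* (6.31, below 8.06 to 8.30, gap 0.876 of the range) and *daf-22* (7.57, below 8.18 to 8.29, gap 0.839 of the range). The same held for *daf-6* (5.62, below 6.94 to 7.18, gap 0.847 of the range), *dhs-28* (9.22, below 9.92 to 9.99, gap 0.905 of the range) and *maoc-1* (7.18, below 7.58 to 7.64, gap 0.871 of the range). The same held for *sptl-3* (8.74, below 9.09 to 9.15, gap 0.850 of the range). It was the high one for *meg-1* (11.30, above 10.83 to 10.88, gap 0.882 of the range), *meg-3* (8.09, above 7.41 to 7.52, gap 0.831 of the range) and *oma-1* (12.03, above 11.82 to 11.86, gap 0.845 of the range).

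Starved array 1 stood apart for *acs-3* (7.70, above 7.24 to 7.31, gap 0.858 of the range), *dct-5* (7.51, above 6.81 to 6.91, gap 0.847 of the range) and *sqst-1* (10.68, above 10.06 to 10.07, gap 0.980 of the range). Starved array 2 stood apart for *col-95* (7.12, above 6.87 to 6.91, gap 0.840 of the range). Starved array 4 stood apart for ND4L (7.68, below 8.31 to 8.40, gap 0.876 of the range) and ND5 (10.45, below 11.34 to 11.39, gap 0.949 of the range). Well-fed array 2 stood apart for *R107.10* (4.04, above 3.53 to 3.57, gap 0.915 of the range), *acs-20* (9.02, above 8.75 to 8.79, gap 0.844 of the range) and *hsp-43* (10.39, below 10.51 to 10.52, gap 0.886 of the range). The same held for *pat-2* (10.02, above 9.96 to 9.97, gap 0.847 of the range). Well-fed array 3 stood apart for *cysl-2* (7.30, above 6.79 to 6.84, gap 0.891 of the range), *elo-5* (11.68, above 11.30 to 11.36, gap 0.845 of the range) and *fat-6* (10.09, above 9.77 to 9.83, gap 0.833 of the range). The same held for *sptl-1* (8.10, below 8.26 to 8.27, gap 0.932 of the range). Well-fed array 4 stood apart for *bed-3* (10.40, below 10.71 to 10.76, gap 0.844 of the range), *ces-2* (4.66, below 4.82 to 4.84, gap 0.843 of the range) and *daf-36* (5.13, above 4.66 to 4.71, gap 0.909 of the range). The same held for *hog-1* (7.99, below 8.29 to 8.30, gap 0.968 of the range) and *vha-1* (12.19, below 12.30 to 12.31, gap 0.921 of the range).

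Probe sets that could not be paired with a single gene also held signal. Of 646 probe sets listed with several genes 145 passed (22.4%), 97 higher and 48 lower in starved N2. Of 3125 probe sets without a listed gene 458 passed (14.7%), 315 higher and 143 lower. They enter none of the counts of genes given above.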

How the results depend on the processing

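With 1 array left out at a time, between 1935 and 2752 genes rose and between 2413 and 2803 fell, against 2759 and 2948 with all arrays. Leaving out starved arrays 1 and 3, a choice made after seeing the data, 1421 rose and 2093 fell. The methods' t-test, adjusted by Benjamini-Hochberg, gave 1456 rises and 1586 falls. A fold of at least 1.5 left 913 and 1319, an unadjusted p under 0.05 gave 4477 rises, and the strain difference, with 0 genes passing, had 1641 at an unadjusted p under 0.05. Median centring, quantile or cyclic loess scaling, an intensity trend, weights for arrays, dim probe sets left out, every probe set used and a fit to the N2 arrays alone kept both counts within 1.5 times, from 1970 to 3210 for rises and from 2298 to 3506 for falls.

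Replicate numbers did not pair the N2 samples, since the correlations of the deviations of same-numbered arrays were -0.066, -0.0087, 0.112 and -0.025. With the replicate block 2448 genes rose and 2759 fell, and the rises of *fat-5*, *lid-1* and *lin-14* no longer passed.

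Of the 295 genes of the text 280 passed, and 233 of these passed under each alternative fitted to single genes. No named gene that passed with all arrays changed sign under an alternative, and none passed there with the opposite sign. Sign changes of genes that passed in neither fit were not counted. Single arrays decided the calls of *lipl-6*, *lid-1*, *fat-5*, *bli-2*, *col-7*, *ins-20*, *ins-27*, *lin-14* and *myo-3* and of the mitochondrial ATP6, COX2, COX3, ND1 and ND2. The highest adjusted p was 0.135 for *lipl-6* and 0.121 for *lid-1* (both without starved array 3), 0.0780 for *bli-2* and 0.0860 for *col-7* (both without starved array 1), 0.130 for *ins-27* (without starved array 4), 0.0725 for *ins-20* (without well-fed array 3), 0.102 for *lin-14* (without well-fed array 1), 0.0608 for *myo-3* (without starved array 3) and 0.114 for COX3 (without well-fed array 2). The calls of *pmt-1* and *snf-3* were lost without starved array 1 (adjusted p = 0.0515 and 0.0567), and ND6 passed without well-fed array 1 (adjusted p = 0.0167). Without starved arrays 1 and 3, 39 of the 280 lost their call, *sqst-1*, *sqst-2*, *sqst-3*, *lin-42*, *sams-1*, *nos-2*, *meg-1*, *meg-3* and *vit-6* among them. Fewer samples were fitted there, and no further cause was tested. In the fit to the N2 arrays alone 22 of the 280 lost their call. Of 1241 list medians recomputed, 85 moved beyond the replicate spread.

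The files hold no scanner signal, so the brightness over background is unknown for each gene, and 4 arrays a group limit the precision. On simulated data for this comparison (25498 genes) limma recovered 38.8% of 67 genes changed by 0.5, 92.5% of 67 changed by 1 and 100% of 66 changed by 2 on the log2 scale. In the simulation 7 unchanged genes passed. No other gene was changed there, so the adjusted threshold was stricter than in the data. These shares therefore do not give the recovery in the real comparison.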
